A study of Mus musculus with 8 samples.

Results

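Normoxic G2/M melanoma cells were defined here as the B16F10 tumour cells that carried high levels of 5 genes of G2 and mitosis together with low levels of 5 genes induced by low oxygen. Of 41925 deposited cells from 8 tumours, 22783 passed the limits for melanoma cells, and 1284 of these were normoxic G2/M cells (5.64%, exact binomial 95% confidence interval 5.34 to 5.94%, counting error only). The members were chosen by measured values: G, the mean of ln(1 + UMIs per 10000) over Ube2c, Cenpf, Prc1, Top2a and Plk1, had to lie in the top 10%, and H, the same mean over Car9, Bnip3, Ndrg1, Egln1 and Hilpda, at or below its median. Both cuts were made on the pooled cells, so that they limit the share of members in advance. A UMI (unique molecular identifier) marks 1 captured transcript, so a count is a number of molecules. Eligible cells held 200 to 5000 genes, at most 7.5% mitochondrial UMIs, at least 4000 UMIs and at least 0.3% of UMIs from Mlana, Pmel, Dct, Tyr and Tyrp1, which encode melanosome proteins.

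B16F10 is a melanoma cell line of C57BL/6 mice. The tumours grew under the skin of the flank to the large size class (300 mm3), 4 in Atf4 WT/WT hosts (WT) and 4 in Atf4 Δ/Δ hosts (KO), at a labelled host age of 12 weeks, with 1 10x Genomics 3′ library per tumour. All hosts carried the ubiquitous, tamoxifen-inducible Rosa26::CreERT2 recombinase and received tamoxifen by gavage. The deletion was thus a global one in the host and may be incomplete, while the injected melanoma cells kept their own Atf4. WT tumours 1 and 3 grew in males and 2 and 4 in females, whereas KO tumour 1 grew in a female and the other 3 in males, so host sex was not balanced between the genotypes. The libraries held 37283598 to 74942137 UMIs each, and the members 1718427 to 4326000 UMIs per tumour.

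In the G2 phase a cell with duplicated chromosomes accumulates mitotic cyclins that activate the kinase Cdk1. Mitosis then follows, in which chromosomes condense, attach through kinetochores to the spindle and separate once the anaphase-promoting complex marks securin and cyclin B for degradation. Many genes needed at this stage are transcribed together late in the cell cycle, through promoters that carry a cell cycle genes homology region (CHR) and CCAAT boxes, which are recognised by the MuvB complexes with B-Myb and FoxM1 and by NF-Y. Under low oxygen, hypoxia-inducible factors switch on genes of glycolysis, pH control and angiogenesis, and the genes of H, among them the carbonic anhydrase gene Car9 and the mitophagy gene Bnip3, are known targets of these factors.

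The limit on G ran through a continuous range of cells. The lowest G among members was 1.491 and the highest among other normoxic cells was 1.489. There were 250 members within 0.1 above the limit and 233 normoxic cells within 0.1 below it. Along H, the highest member value was 0.4225 and the lowest among G2/M cells left out was 0.423, and 207 members (16.1%) had no UMI of any of the 5 hypoxia genes. All 5 G genes were found in 1188 members (92.5%) and 4 of them in the other 96. The limit of 5000 genes removed 497 cells that met the other limits. Of these, 124 reached the G threshold (24.9%, exact 95% interval 21.2 to 29.0%, counting error only), 75 of them with H below its limit too. Per tumour the share that reached the G threshold was 14.8% (KO tumour 2) to 33.3% (WT tumour 4).

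The 5 melanosome genes, on which the cells were chosen, made up a median of 1.30% of UMIs per member (1.18 to 1.39% across tumours), a value that the choice itself bounds from below. Among melanocyte genes that the rule did not use, the transcription factors Mitf, Sox10 and Pax3 stood at 384, 149 and 250 CPM (UMIs per 1000000 UMIs of the summed members). Markers of T and NK cells (8 genes) and of erythroid cells (6 genes) were at 0 UMIs in all members. Of 8 dendritic cell genes, 2 had UMIs (12 in all, with H2-Ab1 at 6), and Flt3, Xcr1 and Clec9a were at 0. Endothelial genes gave 667 UMIs, of which Egfl7 gave 624, and Flt1, Kdr and Cldn5 were at 0. All 8 macrophage genes had UMIs, 311 in sum and led by Lyz2 with 146; per tumour the sum was 45, 2, 17 and 14 in WT and 20, 166, 9 and 38 in KO. The 8 fibroblast genes gave 7619 UMIs, of which 6673 were Sparc, a matrix protein gene; per tumour the sum was 353, 262, 316 and 434 CPM in WT and 341, 585, 390 and 500 in KO. There were 101 members (7.87%) with 3 or more UMIs of these host markers other than Sparc. Egfl7 was kept in this count, though it stood at 32.2 CPM in members and 31.4 in other normoxic melanoma cells. How many of the 101 carried RNA of host cells was not tested. No doublet caller was run. In all, 199 barcodes occurred in more than 1 library, 11 members carried such a barcode, and 0 members shared one with another member.

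Members held more UMIs than the other normoxic melanoma cells. Their median was 12774 to 17515 UMIs per cell across tumours against 9245 to 12275, a ratio of 1.44 ± 0.0585 (SD, n = 8) that lay between 1.36 and 1.54. Median genes per cell were 1.20- to 1.28-fold higher. Against G2/M cells above the H median, called hypoxic G2/M cells below, the UMI ratio was 1.11 ± 0.0486 (SD, n = 8). The median mitochondrial share was similar in the 3 states, at 5.68% in members, 5.69% in other normoxic and 5.63% in hypoxic G2/M cells (median over tumours). Since deeper cells show a UMI of a gene more often, shares of cells with a UMI are given below after thinning every cell to 4000 UMIs.

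The members made up 3.95 to 7.09% of eligible cells per tumour. The share was 6.68, 3.95, 6.92 and 7.09% in WT tumours 1 to 4 and 5.14, 6.71, 4.39 and 3.97% in KO tumours 1 to 4. WT tumour 2 stood below the other 3 WT tumours, KO tumour 2 stood above the other 3 KO tumours, and the genotypes overlapped. The means were 6.16 ± 1.48% in WT and 5.05 ± 1.21% in KO (SD, n = 4 each), a difference of -1.11 percentage points that was not larger than the spread between tumours (two-sided exact permutation test over 70 assignments, p = 0.371, smallest p possible 0.0286). Of 4 shares tested this way, none passed after Benjamini-Hochberg adjustment (adjusted p = 0.743 for this one). With single tumours left out the difference ran from -1.84 percentage points (without WT tumour 2) to -0.744 (without KO tumour 4).

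The share of all G2/M cells varied less than the share of them that was normoxic. G2/M cells of either kind were 9.83 ± 0.946% of eligible cells in WT and 10.0 ± 1.51% in KO (exact permutation p = 0.943). The cut took the top 10% of G over the pooled cells, so that the general level of this share was set in advance. Only its spread over tumours and genotypes was measured. Of the G2/M cells, 59.5, 41.4, 73.4 and 77.6% were normoxic in WT tumours and 46.6, 73.9, 52.4 and 34.5% in KO tumours. The means were 63.0 ± 16.4% and 51.9 ± 16.5% (exact permutation p = 0.371), and their difference of -11.1 percentage points was -18.5 without KO tumour 2, -18.3 without WT tumour 2, -6.24 without WT tumour 4 and -5.34 without KO tumour 4. This split ran beside that of all eligible cells, of which 38.9 to 75.1% in WT and 31.5 to 61.3% in KO were normoxic by the same cut. Among normoxic cells alone, members were 11.1 ± 1.52% in WT and 11.7 ± 1.71% in KO (exact permutation p = 0.6).

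**Figure D1:**
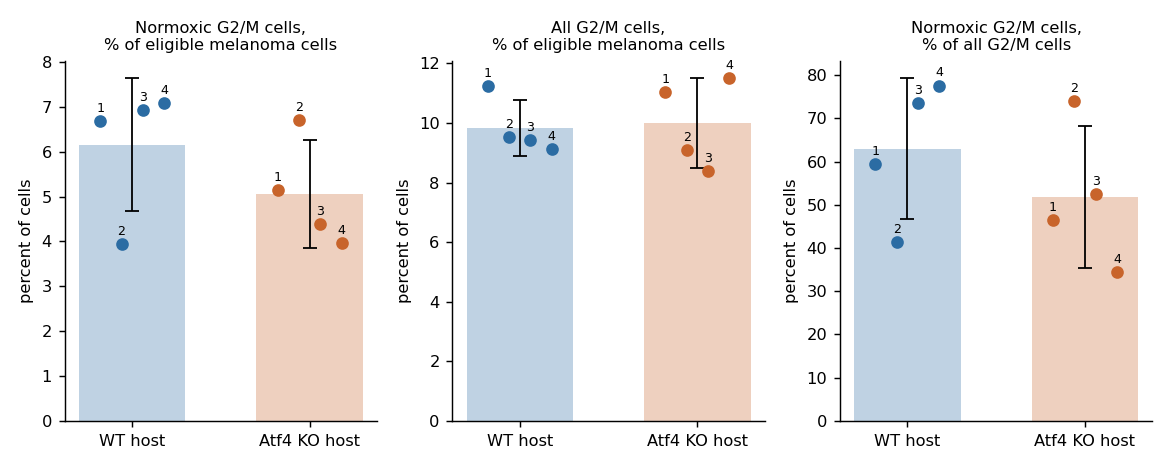
Normoxic G2/M cells as a percentage of eligible melanoma cells (left), all G2/M cells as a percentage of eligible melanoma cells (middle) and normoxic G2/M cells as a percentage of all G2/M cells (right) in each tumour. Points are tumours numbered by replicate, bars are means and error bars SD (n = 4); the normoxic part of the G2/M cells spans 34.5 to 77.6%, whereas the G2/M share spans 8.38 to 11.5%.

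The 5 genes that chose the cells have different tasks in mitosis. Ube2c (chr2:164769898-164778822, plus strand, GRCm38, GENCODE) encodes the ubiquitin-conjugating enzyme of the anaphase-promoting complex, Cenpf (chr1:189640606-189688086, minus strand) a kinetochore protein and Prc1 (chr7:80294450-80316259, plus strand) the microtubule bundler of the spindle midzone. Top2a (chr11:98992943-99024189, minus strand) encodes the topoisomerase that untangles sister chromatids and Plk1 (chr7:122159439-122169873, plus strand) a kinase that drives mitotic entry. After thinning, Ube2c had a UMI in a median of 93.2% of members per tumour and in 27.6% of other normoxic cells. The same shares were 89.8 and 21.9% for Cenpf, 80.4 and 15.5% for Prc1, 96.9 and 35.0% for Top2a, and 55.2 and 10.8% for Plk1. Without thinning the pairs were 100 and 47.5% for Ube2c, 100 and 40.8% for Cenpf, 99.7 and 29.6% for Prc1, 100 and 52.4% for Top2a, and 93.8 and 25.1% for Plk1. These values describe the choice of cells and support nothing further. For the T and NK cell gene Nkg7, which melanoma cells should lack, the share was 0% of members in every tumour.

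Promoters of these genes are shown because all 5 hold both motifs of the late cell cycle. The windows run from 250 bases before to 50 bases after the annotated start (RefSeq, GRCm38.p6), on the strand of the gene. The letters TTTGAA or TTCGAA, the core of the CHR, and CCAAT were searched on both strands and are printed in capitals, also where they read TTCAAA or ATTGG. A match is a description of the letters, not a bound site. The regions are chr2:164769679-164769978 (plus strand) for Ube2c, chr1:189688037-189688336 (minus strand) for Cenpf, chr7:80294201-80294500 (plus strand) for the first of 2 listed starts of Prc1, chr11:99024140-99024439 (minus strand) for Top2a and chr7:122159185-122159484 (plus strand) for Plk1. In the Ube2c window 1 CCAAT match overlapped another one on the opposite strand, and no other matches overlapped.
Ube2c: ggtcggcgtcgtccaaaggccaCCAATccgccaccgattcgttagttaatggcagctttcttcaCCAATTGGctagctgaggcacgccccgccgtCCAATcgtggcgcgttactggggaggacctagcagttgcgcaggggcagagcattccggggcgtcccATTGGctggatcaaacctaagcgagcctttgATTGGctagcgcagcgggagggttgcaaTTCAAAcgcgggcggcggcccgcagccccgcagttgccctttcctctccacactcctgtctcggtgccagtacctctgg
Cenpf: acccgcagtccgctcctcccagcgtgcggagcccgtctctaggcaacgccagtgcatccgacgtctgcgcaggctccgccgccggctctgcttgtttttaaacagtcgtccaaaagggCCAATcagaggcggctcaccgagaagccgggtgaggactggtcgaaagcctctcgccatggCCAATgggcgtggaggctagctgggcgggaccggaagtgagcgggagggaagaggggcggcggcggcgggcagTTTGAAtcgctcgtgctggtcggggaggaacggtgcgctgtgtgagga
Prc1: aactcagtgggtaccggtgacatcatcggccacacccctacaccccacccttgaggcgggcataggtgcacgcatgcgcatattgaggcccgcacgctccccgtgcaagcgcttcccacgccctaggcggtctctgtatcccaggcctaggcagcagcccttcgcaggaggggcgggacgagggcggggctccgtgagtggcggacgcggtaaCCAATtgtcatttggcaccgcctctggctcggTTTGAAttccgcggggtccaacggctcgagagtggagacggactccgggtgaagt
Top2a: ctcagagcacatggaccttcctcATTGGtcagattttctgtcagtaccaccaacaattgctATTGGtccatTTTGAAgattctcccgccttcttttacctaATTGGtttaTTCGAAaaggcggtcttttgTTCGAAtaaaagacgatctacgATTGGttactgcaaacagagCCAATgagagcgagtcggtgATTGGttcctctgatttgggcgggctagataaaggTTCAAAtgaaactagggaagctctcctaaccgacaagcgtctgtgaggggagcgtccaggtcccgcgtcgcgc
Plk1: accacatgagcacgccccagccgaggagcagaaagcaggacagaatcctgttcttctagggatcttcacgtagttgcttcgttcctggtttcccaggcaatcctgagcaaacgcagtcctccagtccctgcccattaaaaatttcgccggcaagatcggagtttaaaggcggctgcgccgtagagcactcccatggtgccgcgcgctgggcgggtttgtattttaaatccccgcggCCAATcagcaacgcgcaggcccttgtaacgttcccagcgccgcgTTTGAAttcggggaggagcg

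In each window the last CHR match lay downstream of the last CCAAT match. Counted from the annotated start, the last CHR match began at -29 in Ube2c, 2 in Cenpf, -5 in Prc1, -23 in Top2a and 30 in Plk1, and the last CCAAT match at -57, -71, -37, -58 and -14. Ube2c and Top2a held 6 CCAAT matches each, Cenpf 2, and Prc1 and Plk1 1. Of all 32851 promoter windows, 19.2% held a CHR match, 37.4% a CCAAT match and 7.52% both. Of the 4 H genes with a window, 0 held a CHR match. The 6 lists of mitotic genes described below together had a window for 73 of 86 genes, of which 48 held a CHR match and 38 both motifs. The S phase list had windows for 20 of 25 genes, of which 4 held a CHR match and 14 a CCAAT match.

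Among genes outside the rule, CHR matches were most frequent where the ratio of members to other normoxic cells was largest. The cut on G made this contrast, so the shares describe the chosen cells and test nothing. Among 6255 genes with a window and a mean of at least 10 CPM over members and other normoxic cells, 13.8% held a CHR match. Of the 105 genes with a log2 ratio of 1 or more between the states, 67.6% held a CHR match, 69.5% a CCAAT match and 54.3% both. Of the 137 genes with a ratio from 0.5 to 1, 35.0% held a CHR match. In every bin below 0.5 it was 8.86 to 16.4%. CCAAT matches, with or without a CHR match, stood at 36.9 to 40.3% in the bins below 0.5. They rose to 51.8% in the bin from 0.5 to 1 and to the 69.5% given for the top bin.

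**Figure D2:**
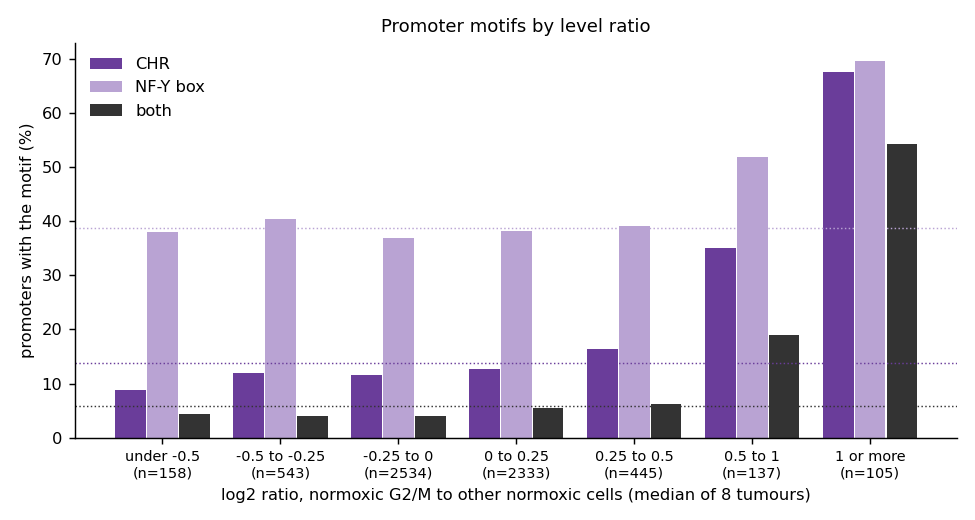
Percentage of promoters with a CHR match, a CCAAT match (NF-Y box) or both, by the log2 ratio of the gene's level between normoxic G2/M and other normoxic cells (median of 8 tumours, rule genes left out). Bars are bins with the number of genes below them and dotted lines the value over all 6255 genes; the CHR bar reaches 67.6% in the top bin against 13.8% over all genes.

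Levels in members were next compared with other normoxic cells of the same tumour, as the sum of all counts of each state scaled by TMM (trimmed mean of M values) to CPM. The log2 ratios carry a prior of 1 CPM and are medians over 8 tumours. This contrast was used by the rule, so that it is a description with no test. Of 7792 genes with a mean of at least 10 CPM, 1020 (13.1%) were higher in members in all 8 tumours and 1060 (13.6%) lower, and the median gene had a ratio of -0.01. In 5 of the 6 mitotic lists every measured gene was higher in all 8 tumours.

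Mitotic cyclins, Cdk1 and the switches around it (11 genes, all higher in 8 of 8 tumours) had a median log2 ratio of 1.68. Ccnb1, the cyclin B1 that carries Cdk1 into mitosis, stood at 267, 325, 297 and 251 CPM in WT tumours and 305, 264, 313 and 307 in KO tumours. In other normoxic cells it stood at 71.6, 84.3, 52.9 and 53.1 in WT and 78.6, 52.2, 89.0 and 89.4 in KO, so that the lowest member value lay above the highest of the others. Cdk1 had a ratio of 1.85 (540 against 147 CPM) and Ccna2, cyclin A2, one of 1.48. Cdc25b, a phosphatase that activates Cdk1, had 2.31. The kinases that hold Cdk1 back had lower ratios, 0.83 for Wee1 and 0.37 for Pkmyt1.

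Spindle and cytokinesis genes formed the list with the highest median of all lists, 1.77 over 24 genes, and its lowest member was Ckap5 at 1.13. Nusap1, which bundles microtubules at chromosomes, stood at 197, 186, 222 and 199 CPM in WT and 165, 170, 169 and 153 in KO, against 18.9 to 31.5 over the 8 tumours in other normoxic cells. The 8 members' values all lay above those of other normoxic cells. Aspm, which acts at spindle poles, had a ratio of 2.44 and the kinesin Kif23, which builds the midzone with Racgap1, 2.20. The mitotic kinases (10 genes) had a median of 1.37, from 0.90 for the centriole kinase Plk4 to 2.20 for Aurka. Centromere and kinetochore genes (21) had a median of 1.43, led by the motor Cenpe at 2.11. Chromosome condensation genes (10) had 1.25, with the proliferation marker Mki67 at 1.94 and the condensin subunit Smc4 at 1.47.

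The anaphase-promoting complex was uneven. Of its 10 listed genes 6 were higher in 8 of 8 tumours, with a median ratio of 0.42. The activators Cdc20 and Fzr1 had ratios of 1.88 and 1.71 and the second ubiquitin-conjugating enzyme Ube2s 0.81. Among core subunits Cdc27 had 0.63 (8 of 8 tumours higher), Anapc11 0.20, Anapc5 0.19 and Cdc16 0.04. Pttg1, the securin that the complex destroys, and Gmnn, the licensing inhibitor geminin, which is also a target, had -0.01 and -0.00, with 4 tumours on either side.

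Outside the lists, the rule for named genes (the 10 genes with the largest ratio that kept its sign in all tumours and reached 50 CPM) gave Fam83d first, at 3.16. Fam83d recruits casein kinase to the spindle and stood at 54.0 to 71.4 CPM in members against 4.32 to 7.41 in other normoxic cells. Kpna2, an importin, had 2.36. Of these 10 genes, 7 were in the mitotic lists (Nusap1, Aspm, Cdc25b, Kif23, Aurka, Cenpe and Kif2c).

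**Figure D3:**
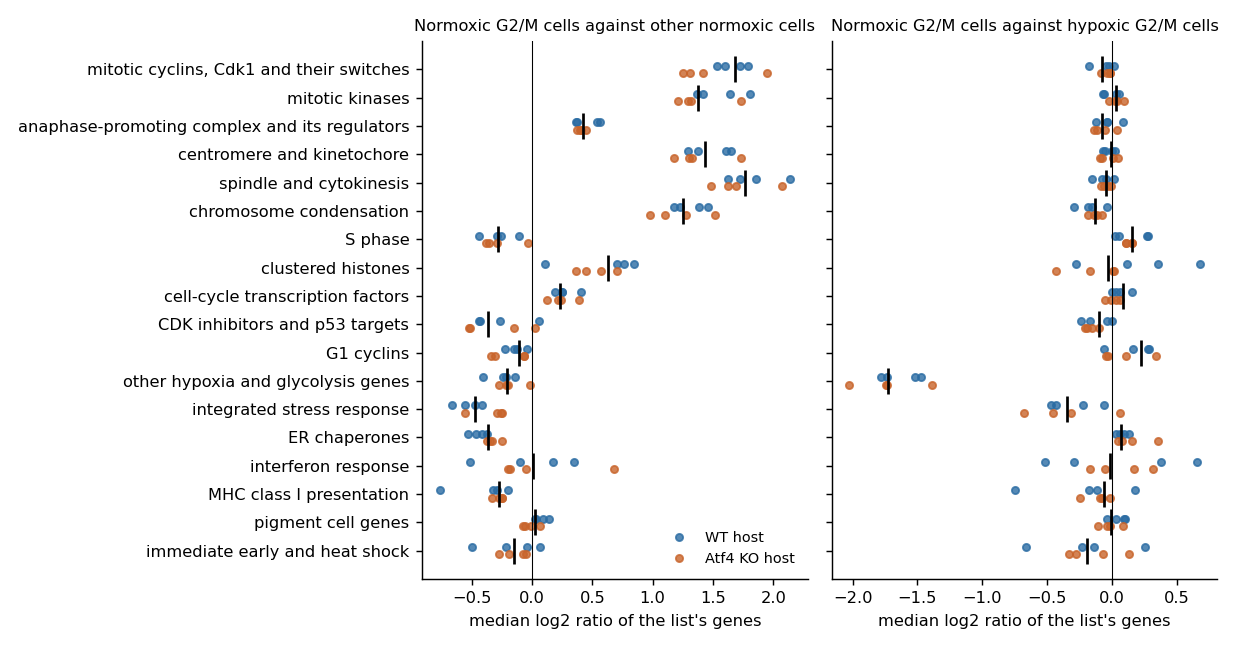
Median log2 ratio of each gene list between normoxic G2/M cells and other normoxic cells (left) or hypoxic G2/M cells (right), on the x axis, for genes of at least 10 CPM. Points are tumours by host genotype and black ticks the median over genes of the median ratio; the mitotic lists other than the anaphase-promoting complex lie at 1.25 to 1.77 on the left and the hypoxia list at -1.72 on the right.

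Some genes of the G1/S transition were lower in members. Cdt1, which licenses replication origins, stood at 30.5, 21.7, 30.1 and 25.8 CPM in WT and 24.8, 28.2, 23.7 and 26.1 in KO, against 52.3 to 71.7 in other normoxic cells, with no overlap. Of 24 measured S phase genes 12 were lower in 8 of 8 tumours and 2 higher, with a median ratio of -0.28. With cells thinned to 4000 UMIs, both for the scores that choose members and for the sums, this median was -0.07. The depths differed, as members had 1.43-fold the UMIs of other normoxic cells in the median tumour, and the part of depth or of the changed membership in this shift was not tested. Cdc6, which loads the replicative helicase, was the lowest at -2.61. Ung, a uracil-removing repair enzyme, had -2.52, Cdt1 -1.25 and Ccne1, cyclin E1, -1.16. Rrm1 and Tyms, which make deoxynucleotides, were the 2 higher ones, at 0.74 and 0.56. Pcna, the polymerase clamp, had -0.00 with 4 tumours on either side.

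Within the members S phase transcripts were not at 0. At 4000 UMIs per cell the S phase list gave a mean of 7.17 ± 0.482 UMIs per member (SD, n = 8) against 7.39 ± 1.18 per other normoxic cell. The spread between cells differed, as 0.971 to 7.55% of members per tumour had 15 or more of these UMIs, against 13.4 to 26.1% of other normoxic cells. The Spearman correlation over cells between the mitotic and the S phase sums was -0.32 to -0.05 per tumour in members and 0.47 to 0.64 in other normoxic cells (a description, since cells of 1 library share its depth and the members were cut on mitotic genes).

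Of 7 genes of the G1 cyclin list, which also holds their kinases and Myc, 2 were lower in 8 of 8 tumours and 1 (Cdk4, 0.10) higher, with a median of -0.11, or -0.30 with cells thinned to 4000 UMIs for scores and sums. Ccnd2, cyclin D2, had a ratio of -0.89, with 212 to 331 CPM in members and 375 to 588 in other normoxic cells, and Ccnd1, cyclin D1, had -0.64, whereas Ccnd3, cyclin D3, had -0.09 with 3 tumours higher and 5 lower. Of 9 measured genes among Cdk inhibitors and p53 targets 3 were higher in 8 of 8 tumours and 3 lower, with a median of -0.36. Cdkn1a, the p53-induced inhibitor p21, had -1.04 and stood at 17.1 to 75.1 against 68.5 to 164 CPM. The 3 higher genes were all Cdk inhibitors. Cdkn2d (p19) had 1.63, at 90.1 to 126 CPM in members against 29.4 to 37.5, Cdkn2c (p18) had 1.07 and Cdkn1b (p27), of the same family as p21, 0.25. Of 13 measured cell-cycle transcription factors and their partners 6 were higher in 8 of 8 tumours and 1 lower, with a median of 0.23. Among them FoxM1 itself (Foxm1) had 1.24 and the MuvB subunits Lin54, Lin9, Lin37 and Rbbp4 had 0.80, 0.76, 0.23 and 0.09, the first 2 higher in 8 of 8 tumours, whereas E2f1 had -0.96 and Mybl2, which encodes B-Myb, 0.10 with 5 of 8 tumours higher.

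Of 7 measured histone genes of the clusters 4 were higher in 8 of 8 tumours and Hist1h2bc was lower (-1.11). Hist1h4d had 1.15 and the linker histone Hist1h1e 0.81. Most such histone mRNAs have no poly(A) tail and are poorly captured by 3′ libraries, and their near-identical copies can share reads, so these levels are uncertain.

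Most genes of the integrated stress response were lower in members, Atf4 itself not among them. Of 16 measured genes of the integrated stress response 10 were lower in 8 of 8 tumours and 0 higher, with a median of -0.47. The transcription factor Ddit3 (CHOP) had -0.78, the stress cofactor Nupr1 -1.03, Cebpb -1.05 and the pseudokinase Trib3 -0.67. Nupr1 stood at 65.1, 76.3, 141 and 195 CPM in WT members and 39.8, 176, 79.0 and 32.2 in KO members, and at 128, 198, 301 and 330 and at 122, 298, 135 and 73.7 in other normoxic cells. It thus varied more between tumours than between the states, while its direction was the same in each tumour. Atf4 had -0.07, with 3 tumours higher and 5 lower.

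All 12 genes of endoplasmic reticulum chaperones were lower in 8 of 8 tumours, with a median of -0.36. Hspa5, the main chaperone BiP, stood at 1054, 1036, 1143 and 1234 CPM in WT members and 801, 1214, 963 and 841 in KO members, against 1149 to 2002 in other normoxic cells, a ratio of -0.51. At 4000 UMIs per cell the chaperone list gave 20.2 ± 1.76 UMIs per member and 26.6 ± 2.91 per other normoxic cell (SD, n = 8). Hypoxia and glycolysis genes outside the rule had a median of -0.21, 5 of 15 lower and 0 higher in 8 of 8 tumours. Pigment cell genes had 0.02 (3 of 11 higher, 3 lower) and interferon response genes 0.01 (1 of 8 higher, 1 lower). MHC class I genes had -0.28 (3 of 4 lower) and immediate early and heat shock genes -0.15 (3 of 10 lower).

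**Figure D4:**
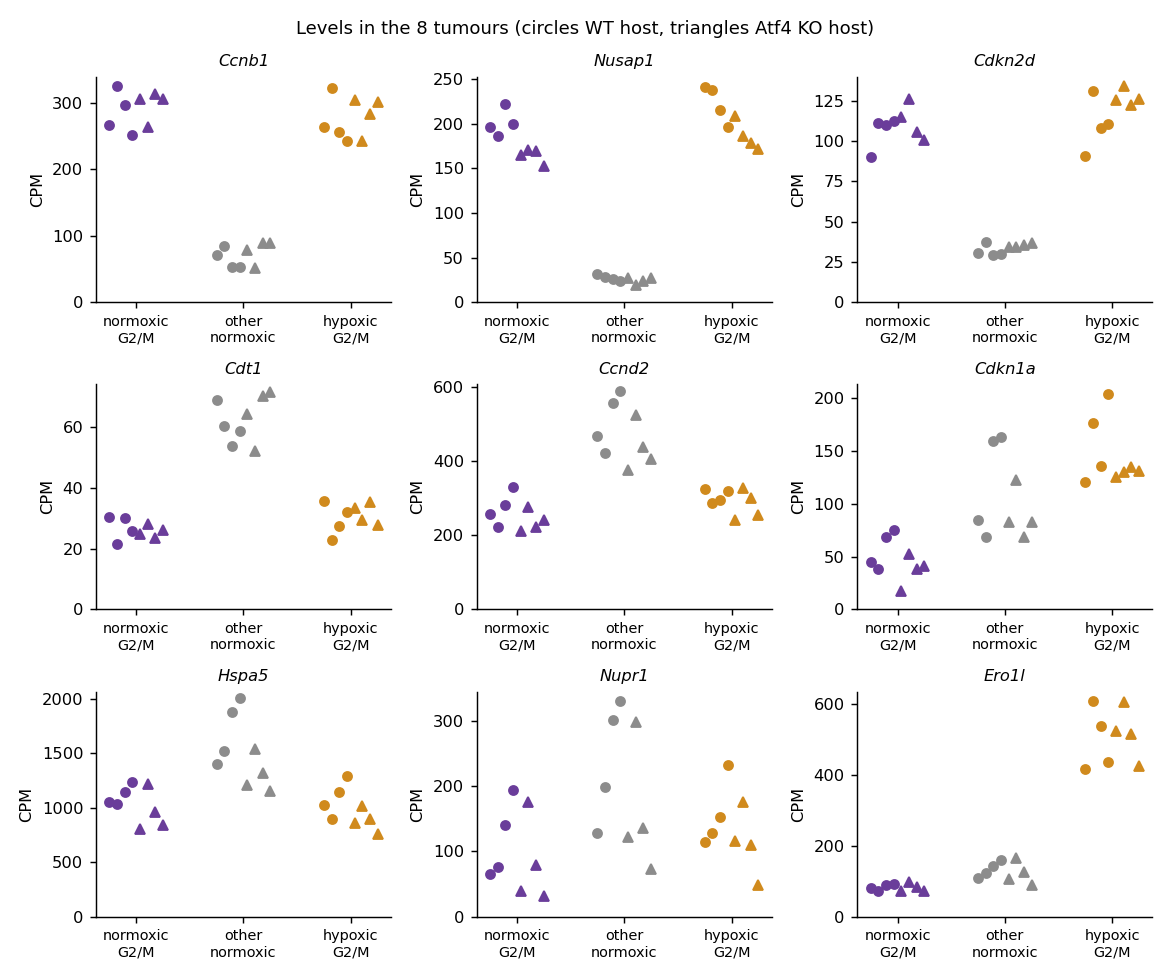
Levels of 9 genes in CPM (TMM-scaled sums) in normoxic G2/M, other normoxic and hypoxic G2/M cells of each tumour, circles for WT and triangles for KO hosts. Ccnb1, Nusap1 and Cdkn2d lie higher in both G2/M states, Cdt1 and Ccnd2 lie lower in them, Cdkn1a is lowest in the normoxic G2/M cells and Ero1l highest in the hypoxic G2/M cells.

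The hypoxic G2/M cells of the same tumours were then taken as the closest population. They shared the G cut, so that the contrast is in essence the H cut, again a description. Of 7794 genes, 813 (10.4%) were higher in members in all 8 tumours and 581 (7.45%) lower. The mitotic lists had medians of -0.13 to 0.03, with 0 to 2 genes of each lower in all 8 tumours except in 1 list. Of the 10 chromosome condensation genes 4 were lower in 8 of 8 tumours, all condensin subunits (Ncapd2 at -0.32, Smc4 -0.27, Ncapg -0.13 and Ncaph -0.11). Wee1 (-0.76), Cdc25b (-0.29) and Bub1 (-0.47) were lower too, whereas Kif23 (0.15) and Ccnb1 (0.04) were higher.

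All 17 measured hypoxia and glycolysis genes outside the rule were lower in members in 8 of 8 tumours, with a median of -1.72. Ero1l, an oxidase of the endoplasmic reticulum, stood at 72.8 to 98.4 CPM in members and 418 to 609 in hypoxic G2/M cells. Vegfa, the main angiogenic ligand, stood at 14.5 to 26.7 against 54.6 to 108, and Slc16a3, the lactate exporter, had -2.32. With the H genes left out, Espn, an actin bundler, had the lowest ratio of genes at 50 or more CPM in either state that kept their sign (-3.49, 10.4 against 128 CPM), followed by Selenbp1 (-2.98). Cdkn1a was lower here too (-1.53, 8 of 8), with Cdkn1b (p27) at -0.71 and Ddit4, an mTOR inhibitor, at -1.78.

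Genes higher in normoxic than in hypoxic G2/M cells had smaller ratios. The first by the rule was Bop1, a ribosome biogenesis factor, at 0.81 (78.2 against 44.4 CPM). Srm, which makes spermidine, had 0.69 and Tfdp1, the partner of E2F factors, 0.59. Trpm1, a melanocyte cation channel, had 0.78, and stood at 236, 262, 226 and 183 CPM in WT members and 299, 204, 279 and 311 in KO members, against 75.5 to 203 in hypoxic G2/M cells. S phase genes had a median of 0.15 (7 of 22 higher, 0 lower), among them Tyms at 0.40 and Mcm2 at 0.37. Chaperones had 0.07 (4 of 12 higher, 1 lower), and the stress response genes -0.35 (6 of 16 lower).

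Whether the host genotype altered these cells was tested on the summed counts of members with the quasi-likelihood test of edgeR. Atf4 in members was 238, 348, 336 and 397 CPM in WT and 285, 443, 385 and 290 in KO, and overlapped (log2 KO/WT 0.10 ± 0.14 SE, Benjamini-Hochberg adjusted p = 0.935 by edgeR). Since the tumour cells carry intact Atf4, this level does not check the host labels. Of 9333 genes tested, 2 passed an adjusted p of 0.05 (0.0214%), 1 higher (0.0107%) and 1 lower (0.0107%) in KO, and 625 had an unadjusted p under 0.05. All KO tumours lay above all WT tumours for 184 genes (1.97%) and below them for 158 (1.69%). Fewer cells of a kind and less RNA per cell cannot be told apart in such summed values.

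Ftl1-ps1, annotated as a pseudogene of the ferritin light chain, stood at 79.1, 93.7, 94.4 and 64.2 CPM in WT members and 158, 174, 113 and 136 in KO members (log2 KO/WT 0.82 ± 0.13 SE, edgeR adjusted p = 0.0451). Gm42418, a gene model that overlaps a ribosomal RNA repeat, stood at 844, 1123, 1434 and 609 in WT and 554, 506, 473 and 441 in KO (log2 -1.02 ± 0.17 SE, edgeR adjusted p = 0.0451). In both the groups did not overlap. Over 20 alternative settings Ftl1-ps1 kept its sign and passed in 10 (edgeR or DESeq2 adjusted p up to 0.288), and Gm42418 kept its sign and passed in 9 (up to 0.158). With host sex as a term 0 genes passed (605 at an unadjusted p under 0.05). The log2 KO/WT ratios in that fit were 0.82 for Ftl1-ps1 and -1.04 for Gm42418 (edgeR adjusted p = 0.135 for each). Without single tumours the count of genes went from 0 (without WT tumour 1, WT tumour 3 or KO tumour 4) to 9 (without KO tumour 2). Reads of Ftl1-ps1 and Gm42418 can come from near-identical copies, so their assignment is uncertain. The same order held outside the members: in other normoxic cells Ftl1-ps1 stood at 83.2 to 101 in WT and 128 to 176 in KO, and Gm42418 at 658 to 1838 and 543 to 638.

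The other genes that the rule for small p named did not pass. Gstp1, a glutathione transferase, stood at 75.2, 115, 96.7 and 84.7 CPM in WT and 197, 304, 101 and 164 in KO (log2 1.07 ± 0.22 SE, edgeR adjusted p = 0.117). KO tumour 3 lay within the WT range and KO tumour 2 was the highest of all 8. The same tumours took these places for Nme2, a nucleoside diphosphate kinase (KO 108, 211, 46.8 and 97.7, WT 34.5 to 59.7, edgeR adjusted p = 0.117), and for mt-Atp8 (KO 251, 502, 93.3 and 141, WT 88.3 to 181, with KO tumour 4 in this range too, edgeR adjusted p = 0.726). In other normoxic cells Gstp1 stood at 191, 354, 109 and 173 in KO and 76.3 to 115 in WT. These genes, too, have near-identical or overlapping neighbours in the annotation.

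Among genes with a role in division, Kpna2 was the one that the rule for small p named on the higher side, at 140, 150, 153 and 110 CPM in WT and 200, 230, 179 and 176 in KO (log2 0.51 ± 0.11 SE, edgeR adjusted p = 0.132). The groups did not overlap, yet the adjusted p missed the threshold. Tmod1, an actin filament cap, had log2 1.43 (edgeR adjusted p = 0.0735). It stood at 7.83 to 11.8 CPM in WT and 11.6, 36.9, 27.3 and 23.9 in KO, with KO tumour 1 in the WT range. Pde10a, a phosphodiesterase, had log2 -0.88 without overlap (edgeR adjusted p = 0.0867). There were 3 histone genes (Hist1h4d, Hist1h1e and Hist2h2bb) among the 10 with the smallest p on the lower side. Hist1h1e stood at 146, 163, 188 and 91.1 in WT and 76.3, 91.8, 105 and 96.6 in KO and overlapped (edgeR adjusted p = 0.208).

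**Figure D5:**
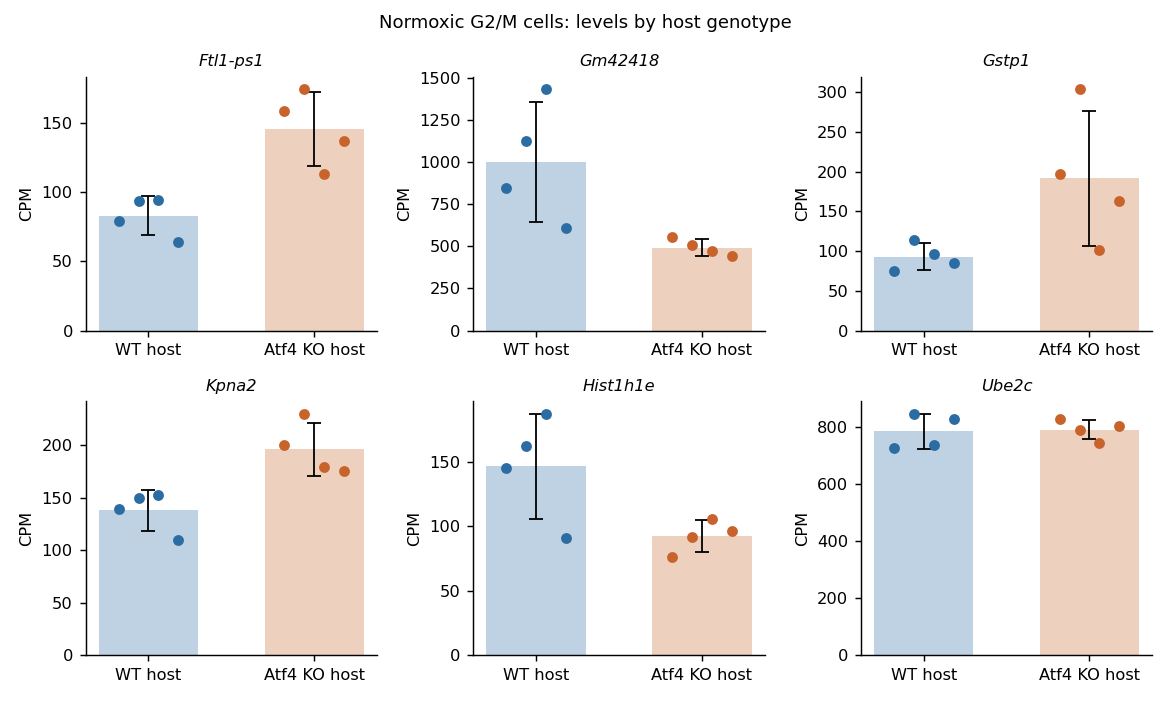
CPM (TMM-scaled sums of normoxic G2/M cells) of 6 genes in each tumour by host genotype, with bars for means and error bars for SD (n = 4). Ftl1-ps1 and Gm42418 are the 2 genes past the threshold and do not overlap, 1 KO tumour of Gstp1 lies in the WT range, and Ube2c stands at 728 to 848 in all 8 tumours, a gene of the rule whose level the choice of members sets.

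No listed gene passed the threshold for host genotype. Every member was chosen for a high mean of the 5 G genes, so their like levels in both genotypes (log2 KO/WT between -0.11 and 0.04) follow from the choice and are no result on genotype. Over all 9333 genes 313 were lower in KO at an unadjusted p under 0.05 and 312 higher. The 24 spindle genes had a median of -0.08, with 4 lower at that p and 0 past the adjusted threshold. The 11 cyclin and Cdk1 genes had 0.06, the 22 S phase genes 0.04 and the 16 stress response genes -0.12, beside -0.00 over all genes. The medians farthest from 0 among the lists of tumour cell genes were those of interferon response (-0.54 over 8 genes, 3 lower at an unadjusted p under 0.05), MHC class I (-0.38 over 5, 1 lower) and clustered histones (-0.34 over 9, 3 lower), none with a gene past the adjusted threshold.

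Tests of the difference between states asked whether the genotype effect was another one in members. Against other normoxic cells, 2 of 11120 genes passed (0.018%, with 458 at an unadjusted p under 0.05), Ccl5 and Lyz2. Ccl5, a chemokine, stood in members at 24.1, 5.28, 114 and 173 CPM in WT and 3.103, 67.2, 6.02 and 12.8 in KO. In other normoxic cells it stood at 19.4, 19.5, 92.7 and 99.4 in WT and 12.5, 108, 25.98 and 16.3 in KO. The KO values were lower in members than in other normoxic cells in all 4 tumours, and the WT values higher in 3 of 4 (interaction log2 -1.31 ± 0.21 SE, edgeR adjusted p = 0.00163). Ccl5 had a UMI in a median of 2.24% of members per tumour after thinning (0.82 to 13.3%), so few cells carried its counts. The call was lost with scores on thinned cells (-0.89, edgeR adjusted p = 0.180), without WT tumour 4 (-1.03, edgeR adjusted p = 0.493) and without KO tumour 3 (-1.11, edgeR adjusted p = 0.0755). Without cells of 3 or more host marker UMIs, a setting chosen after seeing the data, it was -1.83 (edgeR adjusted p = 5.83e-07).

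Lyz2, the macrophage lysozyme, had an interaction of 2.97 ± 0.47 SE (edgeR adjusted p = 0.00163). Its UMIs in members were 16, 0, 1 and 1 in WT and 6, 95, 4 and 23 in KO, with 77 of the 95 UMIs of KO tumour 2 in 3 cells. It missed the threshold without cells of 3 or more host marker UMIs (3.12, edgeR adjusted p = 0.274), with scores on thinned cells (2.52, edgeR adjusted p = 0.180), without WT tumour 4 (1.99, edgeR adjusted p = 0.564) and without KO tumour 2 (2.22, edgeR adjusted p = 0.0979). In WT tumour 1 a single member held 13 of the 16 Lyz2 UMIs, and without this tumour the interaction was 5.57. Against hypoxic G2/M cells, 4 of 9640 genes passed (0.0415%), 432 at an unadjusted p under 0.05. They were the fibroblast collagens Col3a1, Col1a2 and Col1a1 (log2 interactions of 3.64, 4.71 and 3.49) and Lyz2 (3.44, or 5.67 without WT tumour 1), each with a larger KO/WT ratio in members. In KO tumour 2 the member highest for each gene held 130 of 146 Col3a1 UMIs, 128 of 139 Col1a2 UMIs and 99 of 118 Col1a1 UMIs, and in KO tumour 4 the 3 members highest for each gene held 122 of 152, 67 of 80 and 72 of 93. Without cells of 3 or more host marker UMIs the interactions of Col3a1 and Col1a1 were -0.48 and -0.21, and Col1a2 and Lyz2 gave no value there. The 3 collagens and Lyz2 are themselves among these host markers. The setting thus takes out the cells that carry their counts, and for these genes it is no separate check in either comparison. Without WT tumour 1 the 3 collagens had 2.10, 2.05 and 2.03 and at up to 7000 genes per cell 1.68, 2.48 and 1.37, all short of the threshold. With scores on thinned cells they turned to -1.20, -0.96 and -0.86.

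Levels in members also varied between tumours. Among 3148 genes with a mean of at least 50 CPM the median SD of log2 values over 8 tumours was 0.14. Genes among the 10 with the largest SD were Ccl5 (2.06), Isg15 (1.36), Cck (1.23), Trib3 (1.03), Nupr1 (0.95), Nme2 (0.90), Atf5 (0.82), mt-Atp8 (0.80) and Gstp1 (0.68). Isg15, a ubiquitin-like interferon target, stood at 46.2, 9.55, 95.8 and 118 in WT members and 49.0, 77.6, 21.2 and 10.2 in KO members. Cck, a peptide hormone gene, was highest in KO tumour 1 at 201 against 11.9 to 61.9 in the other 7 tumours. Trib3 and Nupr1 were high in the same tumours, WT tumours 3 and 4 and KO tumour 2, which were also the 3 tumours with the largest normoxic part of their G2/M cells. The part of any library or tumour property in these differences was not tested.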

How the data were processed

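Single cells of 8 tumours were analysed. The authors aligned the 10x Genomics reads to GRCm38 with Cell Ranger (3.1.0 per the labels) and deposited for each tumour a matrix of counts (UMIs of each gene in each barcode) that were not normalized. The labels and the study's methods name different kit versions. Groups were taken from the labels. The members and gene lists were chosen with earlier results of these data known. Counts were summed per tumour and state and scaled by TMM, separately for the genotype test and for the comparison of states, so that a level can differ slightly between them. Genotype and genotype-by-state effects (tumour as a block in the latter) were tested with edgeR 4.0.16 in R 4.3.3 (quasi-likelihood, expression filter, Benjamini-Hochberg adjustment, threshold 0.05), with DESeq2 1.42.0 as an alternative, and shares by an exact permutation test (scipy 1.17.1). The test was checked on simulated data, with no outcome reported here. Genes named were the rule genes, Atf4, up to 4 genes per list by level, the 10 largest and 10 smallest ratios that kept their sign in 8 tumours at 50 or more CPM in either state, the 10 smallest p in each direction and the 10 largest SDs. Other listed genes were named after their values were seen. Some genes that these rules select are not reported here. Replicates differed by more than sampling noise (chi-square per gene 1.82 to 4.81 over 12 pairs). Alternatives changed the cell limits, scores, scaling, filter and terms, or left out single tumours. No comparison with sequences other than the promoter windows was made.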

Additional observations from a re-analysis of the deposited data

Results flagged for a closer look

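The share of members among eligible cells drew attention in WT tumours because 1 tumour stood apart: WT tumour 2 had 3.95% against 6.68 to 7.09% in the other 3, a gap of 0.869 of the group's range, above Dixon's critical value for 4 samples. Of 60 groups of 4 tumours examined this way this was the only 1, which is fewer than the about 1 in 20 that chance alone gives.

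There were 6 interactions singled out because the genotype effect differed between members and another state in the edgeR test. They were Lyz2 (2.97 on the log2 scale) and Ccl5 (-1.31) against other normoxic cells, and Col3a1 (3.64), Col1a2 (4.71), Col1a1 (3.49) and Lyz2 (3.44) against hypoxic G2/M cells. In KO tumours 2 and 4 the 3 cells highest for each gene held most UMIs of each collagen and of Lyz2. In KO tumour 1 the 3 highest cells held 4 of 11 Col1a1 UMIs, 5 of 17 Col3a1 UMIs and 3 of 6 Lyz2 UMIs.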

How the results depend on the processing

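The difference in member share stayed below 0 and short of the threshold under all settings run, and was -1.84 to -0.744 percentage points without single tumours. The G2/M share difference turned from 0.168 to -0.103 without cells of 3 or more host marker UMIs and was -0.332 to 0.709 without single tumours. The difference in members as a share of normoxic cells turned from 0.598 to -0.808 at the lower quartile of H and was -0.00313 to 1.27 without single tumours. The difference in members as a share of G2/M cells was -18.5 to -5.34 without single tumours. None of these passed an exact permutation test. The 2 genotype calls became 12 with DESeq2 (2896 genes without an adjusted p), 119 without an expression filter, 6 with scores on thinned cells, 4 with the top 5% of G, 6 at the lower quartile of H and 5 without host-marker cells, a setting chosen after seeing the data. By edgeR they became 0 with host sex as a term (605 at an unadjusted p under 0.05), 0 at 15% mitochondrial UMIs (683) and 0 at a minimum of 2000 UMIs (627). Without single tumours they numbered 0 to 9: 0 without WT tumour 1, WT tumour 3 or KO tumour 4, 1 without KO tumour 1, 4 without WT tumour 2, 8 without KO tumour 3 and 9 without KO tumour 2. With a replicate block the count was 0 (451 at an unadjusted p under 0.05), but same-numbered tumours did not deviate together (correlations -0.22 to -0.02), so the numbers do not pair them. Over the 20 alternatives the log2 KO/WT ratio was 0.717 to 0.928 for Ftl1-ps1 and -1.19 to -0.798 for Gm42418. Atf4 was -0.035 to 0.22 without single tumours. Interactions against other normoxic cells numbered 11 without an expression filter, 0 on thinned cells (458 at an unadjusted p under 0.05), 1 without host-marker cells, and 0 to 11 without single tumours (0 without WT tumour 4, 1 without KO tumour 3, 6 without KO tumour 2, 11 without KO tumour 1). Those against hypoxic G2/M cells numbered 1 at up to 7000 genes, 1 without host-marker cells, and 1 to 6 without single tumours (1 without WT tumour 1). On thinned cells Col3a1, Col1a2 and Col1a1 turned to -1.20, -0.96 and -0.86, and without host-marker cells Col3a1 and Col1a1 turned to -0.48 and -0.21. The host-marker setting leaves out cells by counts that include the collagens and Lyz2, so it is no separate check on them. The cause of the other changes was not tested. With cells thinned to 4000 UMIs for both the scores and the sums the median ratio was 1.61 for mitotic kinases, -0.07 for S phase genes, 0.97 for histones, -0.30 for G1 cyclins and -0.45 for chaperones. Depth limited the tests to genes that passed the expression filter, and 4 tumours per genotype limit every p.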
